A study of Mus musculus with 9 samples.

Results

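The genes described here are 10 immediate early response genes, Fos, Jun, Junb, Jund, Atf3, Egr1, Nr4a1, Ier2, Dusp1 and Btg2, chosen by name among the 13646 genes that have values in all 9 hearts of the series. All 10 are listed in both gene tables of the series, which hold 14073 genes for TAC+PUE and TAC and 13853 for TAC and sham. RNA was sequenced from hearts of male C57BL/6 mice aged 10 weeks, 3 mice in each of 3 groups, taken 21 days after surgery. In the TAC+PUE group, transverse aortic constriction (TAC), a narrowing of the arch against which the left ventricle must pump, was combined with puerarin, an isoflavone of kudzu root, given by intraperitoneal injection, 100 mg/kg each day, starting 3 days ahead of the operation. TAC mice had the same constriction with saline injections, and sham mice had the operation without the constriction, also with saline. The constriction is a surgical model, each library is 1 mouse, and the labels name heart tissue without a chamber. Values are FPKM, which scale the fragments of a gene to its length and to the library total, so levels can be set side by side between genes.

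Immediate early genes are switched on within minutes of a stimulus such as a growth factor, stretch or stress, by transcription factors that already sit on their promoters and are activated by MAP kinases or protein kinase A. Their transcripts decay quickly, so a high level is usually short. Most encode transcription factors: Fos and the Jun proteins pair to form AP-1, Atf3 pairs with Jun proteins, Egr1 is a zinc finger factor, and Nr4a1 is an orphan nuclear receptor. Dusp1 and Btg2 act in the other direction, Dusp1 as a phosphatase that switches MAP kinases off and Btg2 as an antiproliferative protein that promotes decay of mRNA. In the heart, Fos, Jun and Egr1 are known for an early, brief induction after pressure overload.

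Promoters of 8 of the 10 genes matched the RefSeq table of GRCm38.p6, a later build than the mm9 that the submitters name for the files. Those of Fos, Nr4a1, Dusp1 and Btg2 are shown because Fos and Nr4a1 were among the most variable of the 10, and Dusp1 and Btg2 were lower in TAC hearts and higher with puerarin. The motif is the cAMP response element, which CREB and its relatives bind, spelled TGACGTCA, with its 5-base core TGACG, searched on both strands (the core reads CGTCA on the other), over the 250 bases upstream of each start. Capitals mark the core or the whole element, and each run covers the elements found with the bases around them.
Fos, chr12:85473741-85473848, plus strand: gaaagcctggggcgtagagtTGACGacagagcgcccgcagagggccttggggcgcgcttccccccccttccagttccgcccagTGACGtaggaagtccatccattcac
Nr4a1, chr15:101266596-101266830, plus strand: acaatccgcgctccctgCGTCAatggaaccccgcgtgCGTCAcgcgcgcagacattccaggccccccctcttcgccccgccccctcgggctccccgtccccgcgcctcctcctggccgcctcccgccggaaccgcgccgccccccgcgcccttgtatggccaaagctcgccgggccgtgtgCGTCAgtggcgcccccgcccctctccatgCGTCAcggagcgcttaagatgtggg
Dusp1, chr17:26508588-26508683, minus strand: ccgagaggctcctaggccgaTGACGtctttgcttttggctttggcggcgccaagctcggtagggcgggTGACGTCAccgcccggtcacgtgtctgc
Btg2, chr1:134079294-134079341, minus strand: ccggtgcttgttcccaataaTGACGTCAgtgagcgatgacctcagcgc
The whole element stood in 2 of the 8 promoters, Dusp1 and Btg2, and in 1.55% of all 32851 promoters in the table. The core, which every whole element contains on both strands, stood in 6 of the 8, in Fos, Junb, Atf3, Nr4a1, Dusp1 and Btg2, and in 17.8% of all. These windows are also rich in G and C, from 58.4% in Fos to 74.4% in Nr4a1 among those shown, where the median of all promoters is 52.4%. The window of Jund holds 47.6% G and C and neither motif. The table gives 1 start per gene, and whether it is the start used in the heart, for Jund or the others, was not tested. A match says only that these letters are present.

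Fos and the Jun family spanned a wide range of levels. Fos (ENSMUSG00000021250.13) stood at 6.19, 6.23 and 1.44 FPKM in TAC+PUE replicates 1, 2 and 3, at 2.44, 1.45 and 4.46 FPKM in TAC replicates 1, 2 and 3, and at 1.85, 1.42 and 1.37 FPKM in sham. It was thus high in TAC+PUE replicates 1 and 2 and in TAC replicate 3, and near the sham level in TAC+PUE replicate 3 and TAC replicate 2. Jun (ENSMUSG00000052684.4), the main partner of Fos, stood at 35.8, 56.1 and 32.4 FPKM in TAC+PUE, at 35.7, 40.1 and 39.8 FPKM in TAC and at 26.5, 29.9 and 25.7 FPKM in sham. All 6 constricted hearts were above all 3 sham hearts. Junb (ENSMUSG00000052837.6), a Jun protein that can restrain Jun on some targets, stood at 17.3, 24.6 and 12.3 FPKM in TAC+PUE, at 18.8, 17.9 and 21.5 FPKM in TAC and at 8.21, 7.73 and 7.39 FPKM in sham. The constricted hearts again lay above the sham hearts, and TAC+PUE and TAC overlapped.

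Jund (ENSMUSG00000071076.6), the Jun protein with the steadiest expression in resting cells, was the most abundant of the 10. It stood at 61.5, 130 and 84.5 FPKM in TAC+PUE, at 155, 162 and 135 FPKM in TAC and at 42.6, 59.7 and 42.3 FPKM in sham. The 3 groups did not overlap, with TAC+PUE between the others, although TAC+PUE replicate 2 came close to TAC replicate 3 and TAC+PUE replicate 1 close to sham replicate 2. Atf3 (ENSMUSG00000026628.13), a stress-induced factor that mostly represses its targets, stood at 3.89, 12.0 and 2.83 FPKM in TAC+PUE, at 2.29, 3.29 and 3.55 FPKM in TAC and at 2.40, 2.76 and 2.23 FPKM in sham. TAC+PUE replicate 2 stood far above all others, and the other 8 hearts lay close together.

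Egr1 (ENSMUSG00000038418.7) stood at 22.6, 15.7 and 3.75 FPKM in TAC+PUE, at 5.77, 5.71 and 13.9 FPKM in TAC and at 4.02, 3.88 and 4.40 FPKM in sham. Like Fos, it was high in TAC+PUE replicates 1 and 2 and in TAC replicate 3, and TAC+PUE replicate 3 lay below all 3 sham hearts. Nr4a1 (ENSMUSG00000023034.6) stood at 16.5, 28.8 and 6.15 FPKM in TAC+PUE, at 6.93, 6.37 and 13.8 FPKM in TAC and at 12.2, 13.0 and 11.6 FPKM in sham. Its high hearts were the same 3, but its other 3 constricted hearts lay below the sham hearts. Ier2 (ENSMUSG00000053560.4), a small nuclear protein linked to transcription, stood at 15.8, 23.3 and 11.9 FPKM in TAC+PUE, at 28.3, 22.5 and 27.4 FPKM in TAC and at 7.85, 9.42 and 8.46 FPKM in sham. All constricted hearts were above sham, and only TAC+PUE replicate 2 reached the TAC range.

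Dusp1 and Btg2 had their lowest mean levels in TAC hearts. Dusp1 (ENSMUSG00000024190.6) stood at 29.3, 33.9 and 17.6 FPKM in TAC+PUE, at 13.6, 17.4 and 18.4 FPKM in TAC and at 33.5, 34.9 and 33.2 FPKM in sham. TAC hearts were at about the same low level in all 3 mice, TAC+PUE replicate 3 was with them, and TAC+PUE replicate 2 was with sham. Btg2 (ENSMUSG00000020423.6) stood at 25.2, 39.9 and 15.7 FPKM in TAC+PUE, at 11.1, 15.6 and 15.9 FPKM in TAC and at 18.1, 20.5 and 18.9 FPKM in sham. TAC+PUE replicates 1 and 2 exceeded every sham heart, while TAC+PUE replicate 3 lay within the TAC range.

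**Figure D1:**
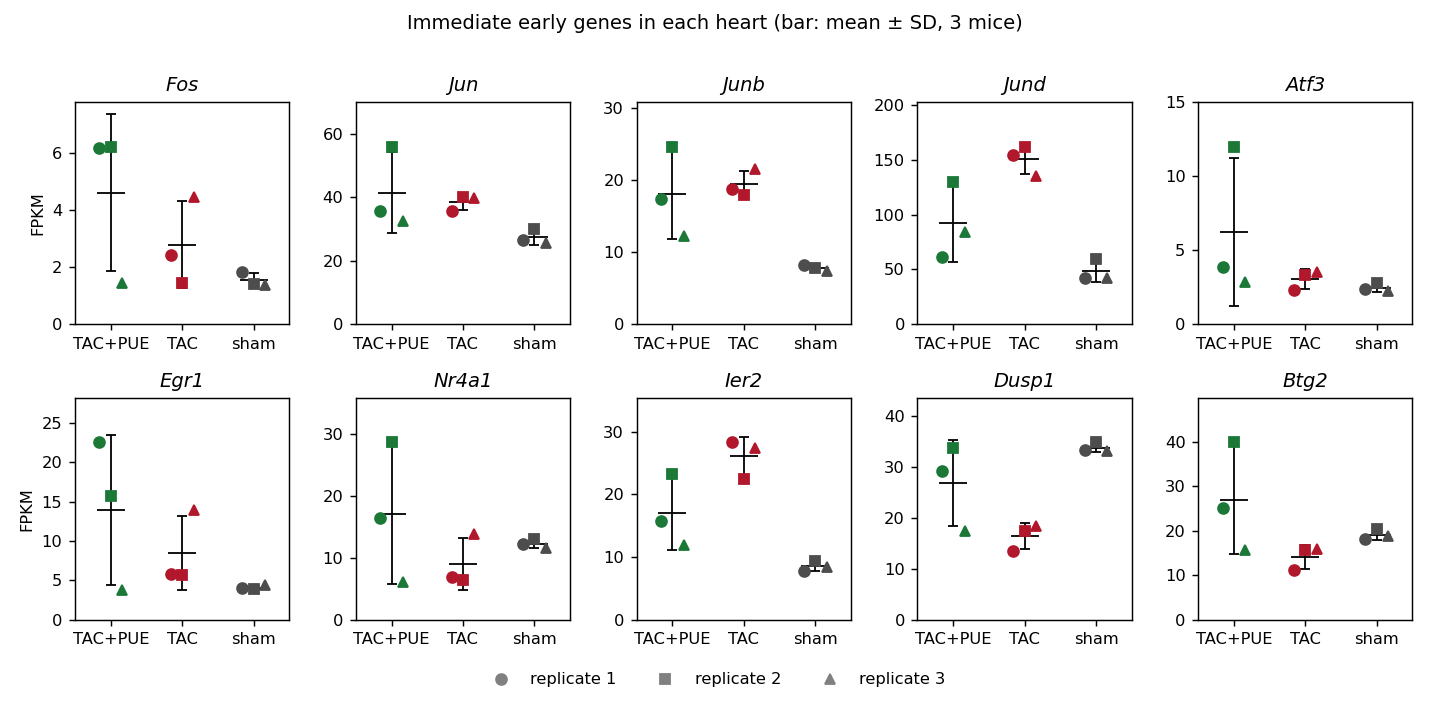
FPKM of the 10 genes (vertical axes, from 0) in each heart of the TAC+PUE, TAC and sham groups, with the symbol giving the replicate and the bar the mean and SD of 3 mice. Jund runs from 42.3 FPKM in a sham heart to 162 FPKM in a TAC heart, and the TAC+PUE points are spread widest in most panels, with replicate 3 lowest in 9 of the 10 genes.

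Facts of the libraries that touch these values are as follows. The 13 mRNAs of the mitochondrial genome took 14.2 to 26.0% of the summed FPKM in TAC+PUE, 2.81 to 7.04% in TAC and 31.6 to 42.9% in sham hearts, and the rRNA-like transcripts Gm26917 and Gm42418 took 1.11 to 2.52% in TAC+PUE, 4.81 to 7.50% in TAC and 0.52 to 1.11% in sham hearts. FPKM are shares of a library. Over all genes tested, the median log2 fold change was -0.12 (TAC against sham), 0.24 (TAC+PUE against TAC) and 0.11 (TAC+PUE against sham). It was -0.24, 0.21 and -0.04 in the same comparisons once both kinds of transcript were left out and the libraries rescaled. Here and below, leaving out transcripts always included rescaling every library to the same total. The part of each step was not tested. All 6 cardiomyocyte markers on the list were detected, at a summed 7587 to 7813 FPKM in TAC+PUE, 10035 to 11143 FPKM in TAC and 6763 to 7519 FPKM in sham hearts. They did not move as one by the limma test given below. In TAC against sham 4 were called higher, Pln lower (-2.09) and Myl2 neither (0.17). In TAC+PUE against TAC Pln was called higher (1.67), Tnni3 (-1.08) and Tnnt2 (-0.63) lower, and 3 neither. Levels of Myl7, an atrial myosin light chain, were 27.4, 708 and 245 FPKM in TAC+PUE replicates 1, 2 and 3, at 79.8, 1.60 and 198 FPKM in TAC replicates 1, 2 and 3 and at 0.857 to 1.07 FPKM in sham hearts. In such bulk tissue, fewer cells of a type and less RNA per cell cannot be told apart.

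In TAC hearts compared with sham, 5 of the 10 genes were higher, Jund, Ier2, Junb, Egr1 and Jun, and 2 were lower, Dusp1 and Btg2, by limma on log2(FPKM + 1) with a two-sided adjusted p under 0.05. Across all 11687 genes tested, 25.3% were called higher and 37.7% lower, or 63% in either direction. All 10 passed the filter, which asked for 1 FPKM or more in 3 or more of 6 libraries. The groups did not overlap for the same 7 genes, and did not overlap for 28.4% of all genes in the higher direction and 41.9% in the lower, or 70.3% in either. The median log2 fold change of the 10 was 0.49, against -0.12 over all genes.

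Jund averaged 151 ± 13.9 FPKM in TAC and 48.2 ± 10.0 FPKM in sham (SD, n = 3 each), a log2 fold change of 1.64 (standard error, SE, 0.16, limma adjusted p = 4.3e-05). Ier2 averaged 26.1 ± 3.12 FPKM in TAC and 8.58 ± 0.79 FPKM in sham, a log2 fold change of 1.50 (SE 0.13, limma adjusted p = 3.2e-05). Junb averaged 19.4 ± 1.88 FPKM in TAC and 7.78 ± 0.41 FPKM in sham, a log2 fold change of 1.21 (SE 0.12, limma adjusted p = 4.8e-05). Their log2 fold changes were at percentiles 99.4, 99.1 and 97.8 of all genes tested. Jun rose less, by 0.48 on the log2 scale (SE 0.12, limma adjusted p = 0.0052). Relative to the median of all genes, the 4 differences were 1.76, 1.62, 1.33 and 0.60 for Jund, Ier2, Junb and Jun, and each stayed called under every alternative that was run.

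Egr1 averaged 8.47 ± 4.73 FPKM in TAC and 4.10 ± 0.27 FPKM in sham, a log2 fold change of 0.79 (SE 0.26, limma adjusted p = 0.023). The size of this rise rested on TAC replicate 3, without which it was 0.40, and the call was lost without sham replicate 2 (0.76) and in the joint fit of 9 libraries (0.79). Fos, at 0.50 (SE 0.24, limma adjusted p = 0.091), did not pass the test, but passed without TAC replicate 2 (0.77), after median-ratio scaling (0.60) or once rRNA-like transcripts were left out (0.84). Atf3 had a log2 fold change of 0.21 (SE 0.15, limma adjusted p = 0.22), and passed without TAC replicate 1 (0.35), after median-ratio scaling (0.33) or once rRNA-like transcripts were left out (0.58). Nr4a1 had -0.48 (SE 0.23, limma adjusted p = 0.089). It passed without TAC replicate 3 (-0.80), the TAC heart in which Fos, Egr1 and Nr4a1 were high together, and once rRNA-like and mitochondrial transcripts were left out (-0.62). Once rRNA-like transcripts alone were left out the difference was -0.021, and without TAC replicate 2 it was -0.29.

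Dusp1 averaged 16.5 ± 2.54 FPKM in TAC and 33.9 ± 0.92 FPKM in sham, and fell by 1.01 on the log2 scale (SE 0.13, limma adjusted p = 1.5e-04). The call held under every alternative run, at -0.53 once rRNA-like transcripts were left out. Btg2 averaged 14.2 ± 2.70 FPKM in TAC and 19.2 ± 1.20 FPKM in sham, a log2 fold change of -0.42 (SE 0.15, limma adjusted p = 0.029). Btg2 was no longer called with sham replicate 1 (-0.46), 2 (-0.38) or 3 (-0.43) left out, nor in the joint fit of 9 libraries (-0.42). Its direction turned once rRNA-like transcripts were left out and the libraries rescaled to the same total (0.054).

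In TAC+PUE hearts compared with TAC, Jund and Ier2 were lower and Dusp1 and Btg2 were higher, each of them opposite in sign to its difference between TAC and sham. Both comparisons hold the same TAC hearts, so the opposite signs are not independent. Across all 11788 genes tested, 32.9% were called higher and 5.45% lower, or 38.4% in either direction. Of the 10 genes, Jund alone had groups that did not overlap, and groups did not overlap for 43.3% of all genes in the higher and 10.1% in the lower direction, or 53.5% in either. The median log2 fold change of the 10 was 0.49, against 0.24 over all genes.

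Jund averaged 92.1 ± 35.1 FPKM in TAC+PUE and 151 ± 13.9 FPKM in TAC (SD, n = 3 each), and fell by 0.77 on the log2 scale (SE 0.24, limma adjusted p = 0.027). Ier2 averaged 17.0 ± 5.79 FPKM in TAC+PUE and 26.1 ± 3.12 FPKM in TAC, and fell by 0.63 (SE 0.22, limma adjusted p = 0.040). Only 1.37% of all genes had a log2 fold change as low as that of Jund or lower, and 2.57% one as low as that of Ier2. Both calls held under the 3 other scalings of the libraries. The Jund call was lost on leaving out TAC+PUE replicate 1 (-0.51) or 3 (-0.74), or TAC replicate 1 (-0.75) or 2 (-0.71). That of Ier2 was lost without TAC+PUE replicate 1 (-0.61) or 3 (-0.42), without TAC replicate 1 (-0.57) or 3 (-0.60), and without the libraries high in Myl7 (-0.65).

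Dusp1 averaged 26.9 ± 8.41 FPKM in TAC+PUE and 16.5 ± 2.54 FPKM in TAC, and rose by 0.64 (SE 0.23, limma adjusted p = 0.046). Btg2 averaged 26.9 ± 12.2 FPKM in TAC+PUE and 14.2 ± 2.70 FPKM in TAC, and rose by 0.80 (SE 0.28, limma adjusted p = 0.043). Relative to the median of all genes these differences were 0.40 and 0.56, and both calls were lost after median-ratio scaling (0.30 and 0.46) and once rRNA-like transcripts were left out, alone (0.33 and 0.50) or with the mitochondrial mRNAs (0.59 and 0.76). The Dusp1 call was lost on leaving out TAC+PUE replicate 1 (0.55) or 2 (0.45), or TAC replicate 1 (0.51), 2 (0.68) or 3 (0.72), and that of Btg2 on leaving out TAC+PUE replicate 1 (0.80) or 2 (0.47), or TAC replicate 1 (0.64) or 3 (0.88). With a filter at 10 FPKM both calls were lost, and that of Dusp1 was also lost at a pseudocount of 0.1, with no filter and with the replicate block (limma adjusted p = 0.052, 0.051 and 0.054).

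The other 6 genes did not pass the test between TAC+PUE and TAC. Nr4a1, Atf3, Egr1 and Fos had log2 fold changes of 0.70, 0.64, 0.49 and 0.49, with standard errors of 0.43, 0.36, 0.50 and 0.40 and limma adjusted p = 0.22, 0.18, 0.46 and 0.35. In each of these 4, TAC+PUE replicate 3 was the lowest of its group, and without it all 4 passed, at 1.26, 0.99, 1.17 and 1.01 for Nr4a1, Atf3, Egr1 and Fos. The number of the 10 genes called higher was thus 6 without TAC+PUE replicate 3, and 0 or 1 without any other library. Without TAC+PUE replicate 3, 23% of all genes were called higher. Jun had 0.06 and Junb -0.14 (SE 0.20 and 0.22, limma adjusted p = 0.82 and 0.63), and their signs turned without TAC+PUE replicate 2 for Jun (-0.17) and without TAC+PUE replicate 3 for Junb (0.093). Jun was also below 0 after median-ratio scaling (-0.28) or once rRNA-like transcripts were left out (-0.25). Without the 3 libraries of at least 100 FPKM of Myl7, a choice made after seeing the data, 5 of the 10 were called higher and 1 lower, in a fit whose single TAC+PUE mouse, replicate 1, is assumed to vary like the TAC mice. In that fit 27.2% of all genes were called higher and 3.81% lower.

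**Figure D2:**
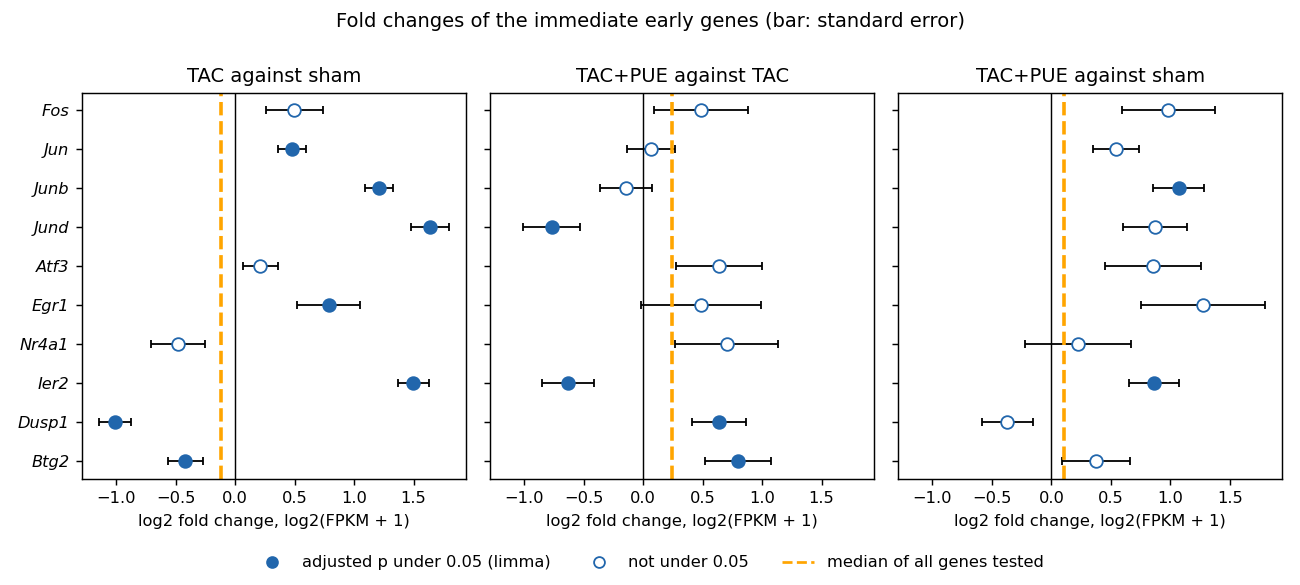
Log2 fold changes on the log2(FPKM + 1) scale (horizontal axes) with standard errors for the 10 genes in TAC against sham, TAC+PUE against TAC and TAC+PUE against sham; filled points have an adjusted p under 0.05 from limma, and the dashed line is the median of all genes tested. Jund and Ier2 stand at 1.64 and 1.50 in the first panel and at -0.77 and -0.63 in the second, while Dusp1 stands at -1.01 and 0.64.

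In TAC+PUE hearts compared with sham, Junb and Ier2 were higher and 8 genes did not pass. Junb had a log2 fold change of 1.07 and Ier2 of 0.86 (SE 0.22 and 0.21, limma adjusted p = 0.020 and 0.035). Across all 11931 genes tested, 14.6% were called higher and 2.7% lower, or 17.3% in either direction. None of the 10 was called lower by limma. At an unadjusted limma p under 0.05, 0 had a negative log2 fold change and 6 a positive one. The share of all genes at that unadjusted p was not taken, so these 2 counts have no background beside them. The groups did not overlap for 5 of the 10, Jun, Junb, Jund, Atf3 and Ier2, all higher in TAC+PUE. That was so for 32.5% of all genes in the higher direction and 10.1% in the lower, or 42.6% in either. Egr1 had the largest log2 fold change of the 10, at 1.27 with a standard error of 0.52, and Fos had 0.98 with a standard error of 0.39 (limma adjusted p = 0.12 for each). Both passed without TAC+PUE replicate 3, at 1.96 and 1.51. Jund, at 0.87 (SE 0.27, limma adjusted p = 0.061), passed without TAC+PUE replicate 1 (1.13). Junb was no longer called without sham replicate 1 (1.11), 2 (1.07) or 3 (1.04), and neither was Ier2 without sham replicate 1 (0.81), 2 (0.92) or 3 (0.86), after median-ratio scaling (0.72) or once rRNA-like and mitochondrial transcripts were left out (0.71). Calls also fell over all genes without a sham heart, from 14.6% higher to 3.5, 8.73 and 3.1% without sham replicates 1, 2 and 3. Dusp1 and Btg2 had -0.37 and 0.38 (limma adjusted p = 0.24 and 0.36), and Nr4a1 had 0.22 (limma adjusted p = 0.74), which turned to -0.25 without TAC+PUE replicate 2.

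All 10 genes were unsteady among TAC+PUE mice, while in the other groups some were steady and others not. The SD of log2(FPKM + 1) over the 3 TAC+PUE hearts was 1.22 for Egr1, 1.04 for Nr4a1, 0.93 for Atf3 and 0.90 for Fos, against a median of 0.16 and a 90th percentile of 0.34 over 12222 genes. The lowest of the 10, Jun, had 0.41, so that all 10 lay in the top 10% of genes by spread in this group. In TAC hearts 3 did, Egr1 (0.66), Fos (0.58) and Nr4a1 (0.55), while Jun, Junb, Jund and Ier2 were at 0.09, 0.13, 0.14 and 0.17, below the group's median of 0.19. In sham hearts 1 did, Jund (0.28), and Dusp1 was among the steadier genes (0.04, with a median of 0.08). These are descriptions of 3 mice each, with no test.

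**Figure D3:**
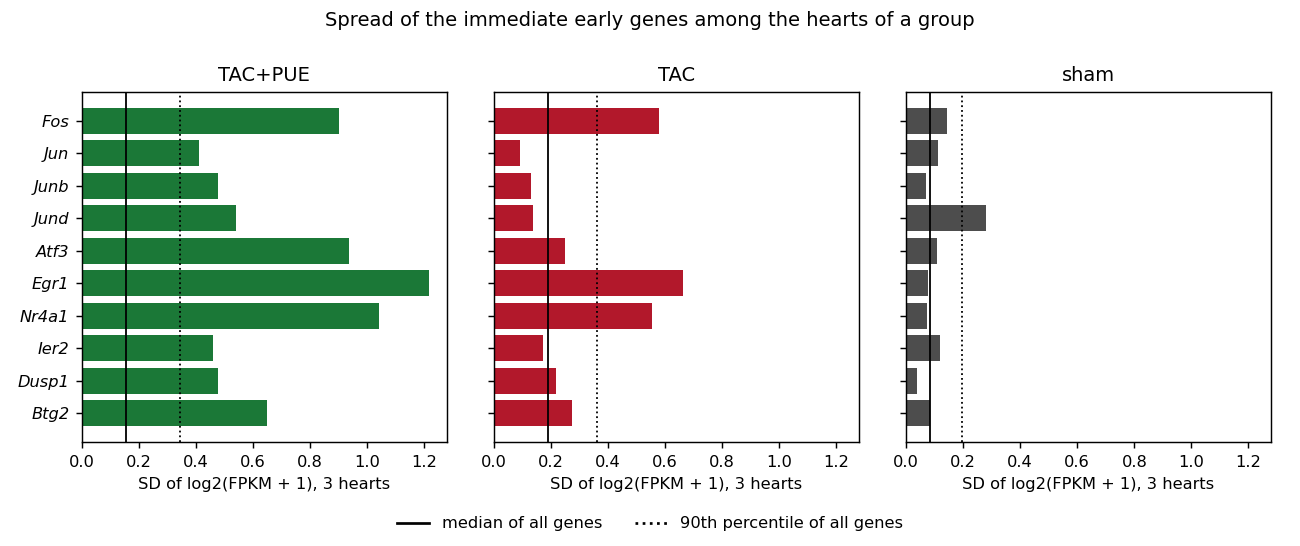
SD of log2(FPKM + 1) over the 3 hearts of the TAC+PUE, TAC and sham groups (horizontal axes) for each of the 10 genes, with the median (solid line) and the 90th percentile (dotted line) of 12222 genes in that group. In TAC+PUE every bar passes the dotted line at 0.34, in TAC those of Fos, Egr1 and Nr4a1 pass 0.36, and in sham that of Jund passes 0.20.

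Most of the 10 genes ranked the TAC+PUE hearts alike. Replicate 2 was the highest TAC+PUE heart for 9 of the 10, all but Egr1, and for 40.7% of all genes. Replicate 3 was the lowest for 9 of the 10, all but Jund, and for 28.5% of all genes. In the TAC group, replicate 3 was highest for 7 of the 10 and for 64.0% of all genes, and its summed FPKM was the largest of the group, 220567 against 187444 and 209445. Myl7 (27.4, 708 and 245 FPKM in TAC+PUE replicates 1, 2 and 3) was highest in replicate 2, as 9 of the 10 genes were. Its lowest heart was replicate 1, as for Jund alone, and not replicate 3, the lowest for the other 9. In TAC it was highest in replicate 3 (198 FPKM), where Fos, Egr1 and Nr4a1 were also highest. The summed red blood cell markers were 1527, 3654 and 6068 FPKM and the 2 neutrophil markers with values in all hearts summed to 1.63, 3.07 and 13.1 FPKM in TAC+PUE replicates 1, 2 and 3, highest in the heart where most of the 10 genes were lowest. The 5 endothelial markers summed to 185, 188 and 156 FPKM in the same hearts, lowest in replicate 3 as well. The 4 fibroblast markers summed to 155, 189 and 152 FPKM, about alike in replicates 1 and 3, and the 4 smooth muscle markers to 135, 68.0 and 62.6 FPKM. In contrast, the 5 macrophage markers (122, 154 and 137 FPKM) and the 6 cardiomyocyte markers (7587, 7813 and 7799 FPKM) were lowest in replicate 1. Their part in the spread was not tested.

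**Figure D4:**
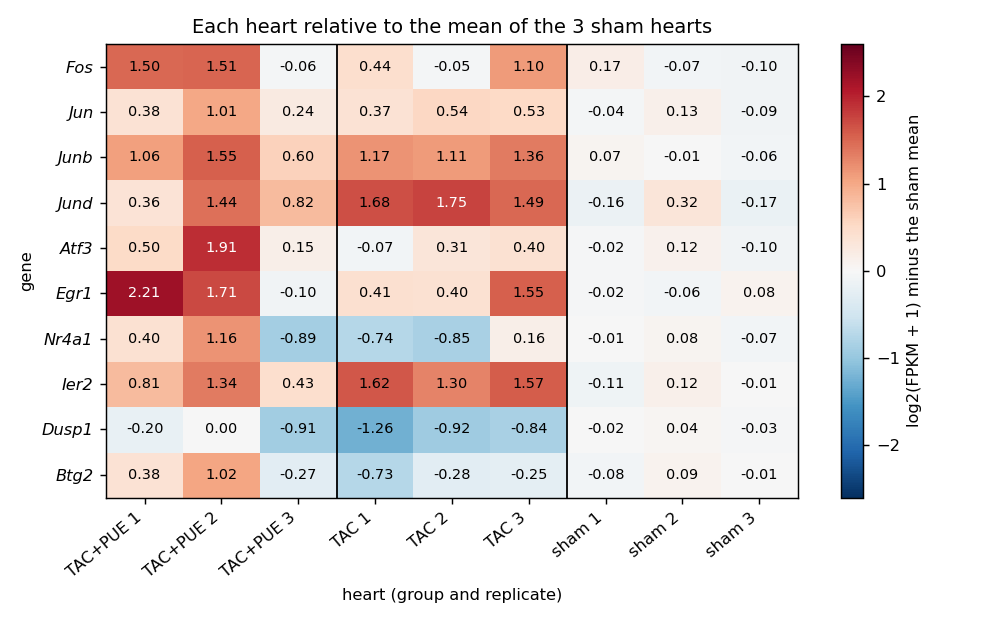
Log2(FPKM + 1) of each of the 10 genes (rows) in each of the 9 hearts (columns, by group and replicate), minus the mean of the 3 sham hearts; red is above and blue below that mean. Egr1 reaches 2.21 and 1.71 in TAC+PUE replicates 1 and 2 and -0.10 in replicate 3, while Jund stands at 1.49 to 1.75 in the TAC hearts and at 0.36 to 1.44 in the TAC+PUE hearts.

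Markers of other cell types also differed between the groups. The 5 endothelial markers, of which all were detected and none is at 0, summed to 107 to 148 FPKM in TAC and 180 to 188 FPKM in sham, lower in TAC as Dusp1 and Btg2 were, and 4 of the 5 were called lower. The 5 macrophage markers summed to 163 to 200 FPKM in TAC and 93.3 to 102 FPKM in sham. That sum was carried by C1qa, and the median log2 fold change of the 5 was 0.009. C1qa (1.30) and Csf1r (0.39) were called higher and Mrc1 (-0.57) lower. The 5 red blood cell markers summed to 5275 to 7690 FPKM in TAC and 1056 to 1283 FPKM in sham, with all 5 called higher. The endothelial markers summed to 156 to 188 FPKM in TAC+PUE and 107 to 148 FPKM in TAC, with 4 of the 5 called higher. The macrophage markers summed to 122 to 154 FPKM in TAC+PUE and 163 to 200 FPKM in TAC, a sum carried by C1qa, which was called lower (-0.64). Adgre1 (0.50) and Mrc1 (0.54) were called higher, and the median of the 5 was 0.47. Their part in the changes of the 10 genes was not tested.

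Other immediate early genes, from a list of 45, were also called in both directions. In TAC against sham 36 were tested, of which 10 were higher, 9 lower and 17 did not pass, where 25.3% of all genes were called higher and 37.7% lower. Their median was 0.13, against -0.12 over all genes. Once rRNA-like transcripts were left out, 25 were higher and 4 lower, where 49% of all genes were higher and 20.6% lower. Fosb, Fosl1 and Egr4 are in neither gene table of the series, so they could not be tested. Egr2, Nr4a2 and Dusp2 were listed but too low to be tested in any comparison. Gadd45g, a stress sensor that acts through p38 and JNK, stood at 23.2, 22.1 and 13.8 FPKM in TAC and 4.01, 4.79 and 4.55 FPKM in sham, and rose by 1.90 (SE 0.18, limma adjusted p = 4.3e-05). Its TAC hearts were all above the sham hearts. Ier5l and Ier5, relatives of Ier2, rose by 1.56 and 1.55 (SE 0.13 and 0.21, limma adjusted p = 2.7e-05 and 1.7e-04), to 7.21 ± 0.61 and 28.9 ± 8.91 FPKM in TAC, against 1.80 ± 0.29 and 8.87 ± 0.84 FPKM in sham. Klf6, a zinc finger factor, averaged 12.7 ± 2.23 FPKM in TAC and 33.6 ± 1.19 FPKM in sham, and Errfi1, a feedback inhibitor of the EGF receptor, averaged 4.98 ± 1.65 FPKM in TAC and 13.3 ± 0.54 FPKM in sham. They fell by 1.35 and 1.29 (SE 0.14 and 0.17, limma adjusted p = 5.6e-05 and 1.7e-04). Further genes called lower were Zfp36, Nr4a3, Sgk1, Plk2, Klf4, Klf10 and Per1, and further ones called higher were Maff, Csrnp1, Ppp1r15a, Socs3, Plk3, Hbegf and Klf2.

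Between TAC+PUE and TAC, 39 of these 45 were tested, of which 7 were higher, 2 lower and 30 did not pass, where 32.9% of all genes were called higher and 5.45% lower. Their median was 0.16, against 0.24 over all genes. Gadd45g stood at 8.01, 11.1 and 9.74 FPKM in TAC+PUE and 23.2, 22.1 and 13.8 FPKM in TAC, and fell by 0.94 (SE 0.21, limma adjusted p = 0.0065). Ier5l fell by 0.54 (SE 0.16, limma adjusted p = 0.025), and Ier5 had -0.53 without passing (limma adjusted p = 0.15). Klf6 averaged 23.2 ± 5.47 FPKM in TAC+PUE and 12.7 ± 2.23 FPKM in TAC and rose by 0.81 (SE 0.20, limma adjusted p = 0.010). Ctgf, a matrix-associated growth factor of fibrosis, stood at 59.6, 105 and 39.5 FPKM in TAC+PUE and 26.8, 39.6 and 24.7 FPKM in TAC, and rose by 1.06 (SE 0.31, limma adjusted p = 0.020). Its TAC+PUE hearts ranked as those of most of the 10 genes did, with replicate 2 highest and replicate 3 lowest. Against sham, 9 of 37 tested were higher and 0 lower by limma in TAC+PUE. Of all genes, 14.6% were called higher and 2.7% lower. At an unadjusted limma p under 0.05 the numbers were 12 and 1, with no share of all genes taken at that p.

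The kinases, transcription factors and RNA decay proteins that act on immediate early genes, a list of 29, were all tested. In TAC against sham 9 were higher, 14 lower and 6 did not pass, beside the 25.3% of all genes called higher and 37.7% called lower, and the median was -0.24 against -0.12. Once rRNA-like transcripts were left out, 13 were higher and 8 lower, where 49% of all genes were higher and 20.6% lower. Map2k2, a MAP kinase kinase, averaged 19.0 ± 1.23 FPKM in TAC and 7.74 ± 1.13 FPKM in sham and rose by 1.20 (SE 0.13, limma adjusted p = 6.4e-05). Map2k4, a kinase upstream of JNK, fell by 1.24, Atf2, a target of JNK and p38, by 1.18 and Creb1, the factor of the element shown above, by 1.14 (limma adjusted p = 6.6e-05, 2.8e-04 and 6.0e-05). Zfp36l1, which binds AU-rich elements and speeds decay of the mRNA, averaged 8.18 ± 2.84 FPKM in TAC and 19.1 ± 2.68 FPKM in sham and fell by 1.17 (SE 0.21, limma adjusted p = 8.4e-04). Srf, the factor of the serum response element, was among the 9 called higher.

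Between TAC+PUE and TAC, 11 of the 29 were higher, 1 was lower and 17 did not pass, beside the 32.9% of all genes called higher and 5.45% called lower, and the median was 0.38 against 0.24. Zfp36l1 stood at 27.8, 19.5 and 16.1 FPKM in TAC+PUE and 5.26, 10.9 and 8.32 FPKM in TAC, and rose by 1.29 (SE 0.25, limma adjusted p = 0.0045). All 3 TAC+PUE hearts were above all 3 TAC hearts. Map2k4, Creb1 and Atf2 rose by 1.03, 0.90 and 0.89 (limma adjusted p = 0.0035, 0.0043 and 0.0063), and Map2k2 was the one called lower, by 0.64 (SE 0.17, limma adjusted p = 0.014). Set against sham, 8 were higher and 0 lower in TAC+PUE by limma, beside the 14.6% of all genes called higher and 2.7% called lower. At an unadjusted limma p under 0.05 the numbers were 11 and 1, with no share of all genes taken at that p. After median-ratio scaling 7 were higher and 7 lower in TAC+PUE against TAC, where 18.2% of all genes were higher and 22.8% lower.

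The 5 genes outside these lists whose levels ran most like the mean of the 10, over the 9 hearts on the log2(FPKM + 1) scale, were Nid2, Txndc12, Ptgfrn, Atg5 and Tmed3, at Pearson correlations of 0.97, 0.96, 0.93, 0.93 and 0.92. These are the largest of many genes over 9 hearts that fall into 3 groups, given as a description with no test. Nid2, a basement membrane protein, ran from 9.02 to 13.2 FPKM in TAC+PUE, from 9.33 to 11.3 FPKM in TAC and from 8.16 to 9.20 FPKM in sham. Tmed3, a protein of vesicle transport, ran from 8.37 to 12.9 FPKM in TAC+PUE, from 7.79 to 10.6 FPKM in TAC and from 6.36 to 6.53 FPKM in sham.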

How the data were processed

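RNA from 9 mouse hearts was sequenced as paired ends from a strand-specific kit. The authors aligned reads with Hisat2, quantified with StringTie and took values with Ballgown (versions are not given in the sources used here), and the submitters' processing notes name mm9. The authors deposited FPKM per gene, by the file headers where the methods name TPM, in 2 tables, which hold the same TAC values. Each table lists genes whose larger group mean reaches 0.5 FPKM. No read counts were used: among 890 low genes of 2 libraries at most 2 shared a ratio, so depth is unknown. No source used here says whether strand entered the counting. The lncRNA lists were not used here.

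Each comparison was fitted with limma 3.58.1 (R 4.3.3) on log2(FPKM + 1), eBayes with trend, two-sided, over genes reaching 1 FPKM in 3 or more of 6 libraries, with Benjamini-Hochberg adjustment over all genes and a threshold of 0.05. On this scale, changes of low genes are understated. TAC+PUE against sham was fitted on the genes in both tables. The fit was tested on simulated data in which 200 genes were changed. Changes of 0.5 on the log2 scale were called for 31.3% (TAC against sham), 5.97% (TAC+PUE against TAC) and 41.8% (TAC+PUE against sham). For changes of 1 these were 89.6, 77.6 and 85.1%. More genes were called in the data than were changed there, so these percentages need not hold for the data. Alternatives were pseudocounts of 0.1 and 5, no filter, a filter at 10 FPKM, median-ratio scaling, eBayes without trend, rescaling without the rRNA-like transcripts alone or also without the mitochondrial mRNAs, the replicate number as a block, a joint fit of 9 libraries, leaving out each library, and, added after seeing the data, leaving out libraries with at least 100 FPKM of Myl7. The rescaling set every library to the same summed FPKM after the transcripts were taken out.

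The 10 genes and the lists were chosen with earlier results of these data known. Named are all 10, up to 6 genes of each list of other immediate early genes and of upstream factors, those called in TAC against sham or TAC+PUE against TAC first by size of change, and the 5 genes of at least 5 FPKM most correlated with the mean of the 10. Other genes were named from the counts after their values were seen. A gene of the upstream list that this rule names is not reported here. Python 3.11.15 was used for tables and figures. Promoter sequences are from RefSeq, GRCm38.p6.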

Additional observations from a re-analysis of the deposited data

How the results depend on the processing

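Jund, Ier2, Junb, Jun and Dusp1 kept their call in TAC against sham under all alternatives. The counts of the 10 genes called higher there ran from 4 to 7, where 20.2 to 49% of all genes were called higher. Depth is unknown, so precision rests on the spread of 3 mice a group. The scaling moved the background most, and leaving out transcripts always included rescaling the libraries to the same total. Over all genes the log2 fold change had a median of -0.12, 0.24 and 0.11 for TAC against sham, TAC+PUE against TAC and TAC+PUE against sham, 0.02, -0.05 and -0.01 after median-ratio scaling, 0.30, -0.01 and 0.26 once rRNA-like transcripts were left out, and -0.24, 0.21 and -0.04 with the mitochondrial mRNAs left out as well. The share of calls that were higher moved with it, from 40.1, 85.8 and 84.4% to 50.8, 44.4 and 53.6%, to 70.4, 51.4 and 96.3% and to 32.2, 79.7 and 57%. Of all genes tested, 25.3, 32.9 and 14.6% were called higher, and 36.1, 18.2 and 7.41% after median-ratio scaling. Those shares were 49, 19.7 and 31% without rRNA-like transcripts and 22.2, 33.6 and 7.13% without both kinds. In the same order, the shares called lower were 37.7, 5.45 and 2.7%, 34.9, 22.8 and 6.4%, 20.6, 18.7 and 1.2%, and 46.6, 8.53 and 5.39%.

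Of the 10 genes, the number lower in TAC than in sham was 1 in place of 2 once rRNA-like transcripts were left out and in the joint fit. In those fits 20.6 and 37.5% of all genes were lower. In TAC+PUE against TAC the number higher was 2, and was 1 at a pseudocount of 0.1 and with no filter (32 and 32.4% of all genes). The number higher was 0 with a filter at 10 FPKM (23.1% of all genes), after median-ratio scaling, and on leaving out rRNA-like transcripts alone or with the mitochondrial mRNAs. Without the libraries high in Myl7 it was 5, with 1 lower. In TAC+PUE against sham the number higher was 2, where 14.6% of all genes were higher. It was 1 after median-ratio scaling (7.41% of all genes) and with both kinds left out (7.13%), and 4 once rRNA-like transcripts were left out (31%). With the replicate block the numbers were 1 higher and 1 lower in TAC+PUE against TAC, where 29.2% of all genes were higher and 4.58% lower. In TAC+PUE against sham 4 were higher with it, as were 21.4% of all genes, and 4.43% of all genes were lower. For same-numbered hearts, the correlation of their deviations from the group means ran from -0.26 to 0.30. For differently numbered hearts it ran from -0.27 to 0.26. Deviations from a mean of 3 hearts are tied to one another, so these values cannot settle whether the replicate numbers are a pairing. With the block Fos (0.50) and Nr4a1 (-0.48) passed in TAC against sham, and Jun (0.54) and Jund (0.87) in TAC+PUE against sham. Ier2 (-0.63) and Dusp1 (0.64) did not pass with it in TAC+PUE against TAC, and 1 other immediate early gene was lower in TAC+PUE against sham. In TAC against sham the SE of the 10 genes ran from 0.15 to 0.17 with the block, against 0.12 to 0.26 without it. A gene's own spread thus had little weight in that fit. Leaving out each library, the 10 genes gave 1 to 3 lower in TAC against sham, 0 to 6 higher and 0 to 2 lower in TAC+PUE against TAC, and 0 to 4 higher in TAC+PUE against sham. Of all genes, 28.5 to 43% were then lower in TAC against sham, and 3.1 to 20.9% higher in TAC+PUE against sham. In TAC+PUE against TAC 19.9 to 37.4% of all genes were higher and 2.11 to 7.15% lower.

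Signs turned for Btg2 in TAC against sham once rRNA-like transcripts were left out (0.054), and, for genes that had not passed, for Jun in TAC+PUE against TAC after median-ratio scaling (-0.28), once rRNA-like transcripts were left out (-0.25), on leaving out a library (lowest -0.17, without TAC+PUE replicate 2, highest 0.22) and without the libraries high in Myl7 (-0.075), for Junb without TAC+PUE replicate 3 (0.093, with a lowest value of -0.38 on leaving out a library) and for Nr4a1 in TAC+PUE against sham without TAC+PUE replicate 2 (-0.25, with a highest value of 0.78). The cause was not tested.

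For other immediate early genes, the numbers higher and lower in TAC against sham (10 and 9) were 25 and 4 once rRNA-like transcripts were left out. The number higher was 19 after median-ratio scaling and 3 with a filter at 10 FPKM, which tests fewer genes. With that filter 32.4% of all genes were higher and 34% lower in TAC against sham. The shares were 23.1 and 8.72% in TAC+PUE against TAC, and 14.7 and 4.62% in TAC+PUE against sham. Shares of all genes under the other scalings are given above. In TAC+PUE against TAC (7 and 2) 3 were higher and 4 lower after median-ratio scaling, 3 and 1 with the filter at 10 FPKM, 4 and 5 without the libraries high in Myl7, and 3 were higher once rRNA-like transcripts were left out. In TAC+PUE against sham (9 and 0) 1 was higher with the filter at 10 FPKM, and 1 lower after median-ratio scaling and 1 with both kinds left out. Leaving out each library gave 3 to 9 higher and 1 to 6 lower in TAC+PUE against TAC. In TAC+PUE against sham it gave 3 to 11 higher and 0 to 3 lower. Of all genes, 3.1 to 20.9% were then higher and 0.347 to 8.65% lower in TAC+PUE against sham. For the upstream factors, the filter at 10 FPKM left 5 higher and 5 lower in TAC against sham, 4 higher in TAC+PUE against TAC and 5 higher in TAC+PUE against sham, and 13 were higher and 8 lower in TAC against sham once rRNA-like transcripts were left out. In TAC+PUE against TAC (11 and 1) 7 were higher and 7 lower after median-ratio scaling, and the number lower was 6 once rRNA-like transcripts were left out, 3 with both kinds left out, 3 in the joint fit and 2 without trend. In TAC+PUE against sham (8 and 0) 5 were higher and 1 lower after median-ratio scaling, and 5 higher with both kinds left out. Leaving out each library gave 0 to 2 lower in TAC+PUE against TAC, and 0 to 11 higher and 0 to 5 lower in TAC+PUE against sham. The shares of all genes in those fits are the ones given above.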
